A study of Mus musculus with 3 samples.

Results

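The genes described here are 10 genes of arginine and nitric oxide metabolism: Nos2, Arg1, Arg2, Ass1, Asl, Slc7a2, Gch1, Odc1, Azin1 and Sat1. They were found by gene name in a table of 55487 mouse genes, each name in a single row. The RNA came from dendritic cells grown in culture from mouse bone marrow (BMDCs), which take up microbes and present their antigens to T cells, and the genotype was wild type in every group. There were 3 libraries, 1 per group: untreated cells, cells treated with P. vulgatus, a bacterium of the gut, and cells treated with YB328, a bacterial strain. The sources used here do not state the dose, the exposure time, the age of the mice or the number of mice behind a culture. With 1 library per group the differences have no replicates to check them, and no p-value is given.

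Arginine is the substrate of competing enzymes in phagocytes. Nitric oxide synthase turns it into nitric oxide and citrulline, with tetrahydrobiopterin as a cofactor, and the citrulline can be rebuilt into arginine. Arginase turns it into urea and ornithine, and ornithine feeds the polyamines putrescine, spermidine and spermine. In mouse macrophages and dendritic cells the inducible synthase is a classical product of stimulation by bacteria, and arginase activity limits the arginine left for it.

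Levels are given in CPM, estimated counts scaled to a common library size, and a level of 1 gene is set against another only in TPM, which also corrects for length. A gene is said to have risen or fallen when it reached at least 5 CPM in a library of the pair, differed at least 2-fold in either direction once 0.5 CPM was added to both levels, and had a 95% interval of the count ratio that excluded 1. The intervals cover counting error only, and reads amplified without molecular identifiers do not each stand for a molecule. The untreated library held 15538133 counts, that of P. vulgatus 26660870 and that of YB328 26924006. The libraries differed in makeup: mitochondrial protein-coding genes took 12.8%, 0.748% and 0.577% of the counts and protein-coding genes of the nucleus, Lars2 left out, took 57.9%, 95.3% and 96.6%, in that order. Ribosomal RNA genes, those of the mitochondrion left out, took 9.54%, 0.789% and 0.386%. The 11 dendritic cell markers summed to 8820 CPM untreated, 16977 with P. vulgatus and 16590 with YB328, and none was at 0. Of these, Ccr7 (675, 5035 and 4670 CPM), Irf8 (273, 1386 and 1604) and Cd83 (291, 973 and 934) rose in both bacterial libraries. Itgax, which encodes CD11c, fell in both (273, 22.5 and 75.4 CPM), Ciita fell with P. vulgatus (98.6, 41.0 and 49.3 CPM), and the other 6 did not pass, among them the abundant Cd74 (4746 to 6811 CPM) and H2-Ab1 (2181 to 2694 CPM). The summed level of 10 neutrophil markers was 4437, 336 and 297 CPM, of 6 stroma and endothelium markers 551, 28.3 and 24.0, and of 10 macrophage markers 471, 703 and 1086, in the same order. Of the stroma and endothelium markers 4 fell in each bacterial library, while Pecam1 rose with P. vulgatus (6.09, 20.8 and 7.54 CPM). Of the macrophage markers 3 rose and 1 fell in each bacterial library. Their median log2 ratio was 0.20 with YB328 and -0.36 with P. vulgatus. The part of this makeup in the differences with the untreated library was not tested, and in bulk samples fewer cells of a type and less RNA per cell cannot be told apart.

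Against untreated cells 5 of the 10 genes rose in each bacterial library and 0 fell. With YB328 these were Nos2, Arg1, Slc7a2, Gch1 and Azin1, where 24.2% of the 10519 genes tested rose and 18.7% fell. With P. vulgatus they were Nos2, Arg1, Arg2, Slc7a2 and Gch1, where 24.7% of the 10509 genes tested rose and 19.2% fell. All 10 genes passed the minimum level in every comparison, which for Nos2 and Arg1 rests on the bacterial libraries. The median log2 ratio of the 10 genes was 0.99 with YB328 and 1.26 with P. vulgatus, against 0.15 and 0.13 over all genes tested. Both comparisons share the untreated library. Between the bacterial libraries, 3 of the 10 genes differed: Ass1 was higher with YB328, where 2.89% of 9764 genes were, and Arg1 and Arg2 were lower, where 2.69% were.

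**Figure D1:**
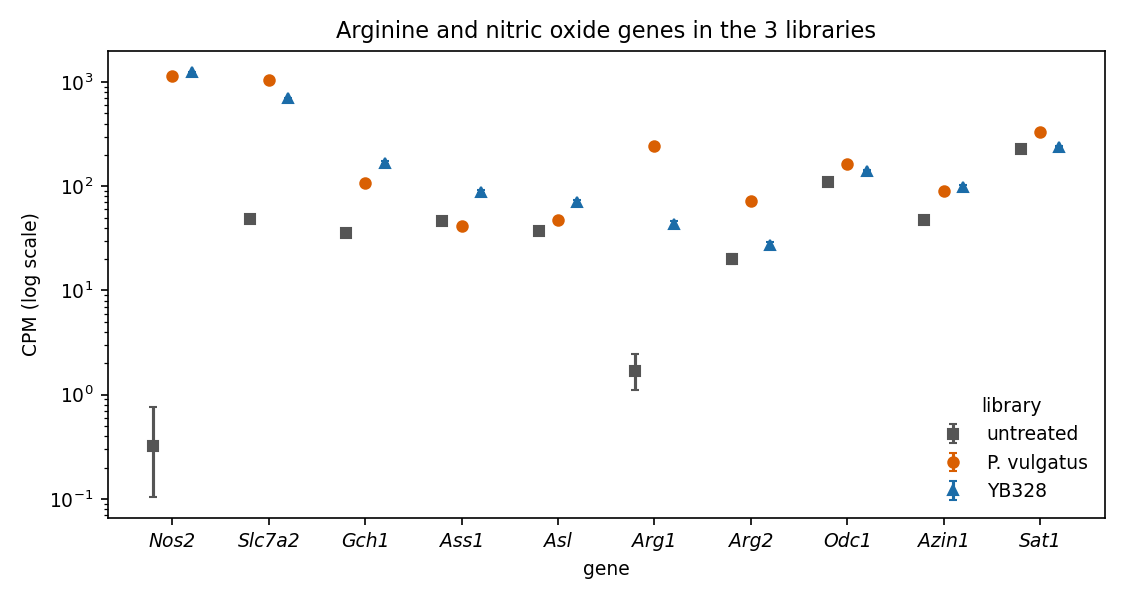
Level of each gene in CPM (log axis) in the untreated (squares), P. vulgatus (circles) and YB328 (triangles) libraries, 1 library each; bars are 95% Poisson intervals of the count. Nos2 rises from 0.324 CPM to over 1000 in both bacterial libraries, Arg1 and Arg2 are highest with P. vulgatus, and the 3 levels of Sat1, like those of Odc1, lie close together.

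Nos2 (ENSMUSG00000020826.9, GRCm38 chromosome 11, 78920787 to 78960254) encodes the inducible nitric oxide synthase. It was at 0.324 CPM untreated, 1142 with P. vulgatus and 1236 with YB328, from 5, 30223 and 33760 counts. Both bacterial libraries were high and the untreated library was near the floor of 3 counts. The rise was 3815-fold with YB328 (95% interval 1635 to 11751) and 3524-fold with P. vulgatus (95% interval 1509.8 to 10853), and the width of both intervals comes from the 5 untreated counts. With 0.5 CPM added, 0 of the other genes tested had a larger log2 ratio in either comparison, and 3 did so with P. vulgatus when the deposited TPM were used. In TPM, Nos2 went from the lowest of the 10 genes untreated (0.071) to the second place with P. vulgatus (282) and the first with YB328 (327). In the YB328 library 433 protein-coding genes had a higher TPM, and in the P. vulgatus library 445. The bacterial libraries hardly differed in this gene, with a ratio of YB328 to P. vulgatus of 1.08 (95% interval 1.07 to 1.10), which did not pass.

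Gch1 (chromosome 14, 47153895 to 47189413) encodes GTP cyclohydrolase, the rate-limiting enzyme of tetrahydrobiopterin synthesis. It was at 35.6 CPM untreated, 107.7 with P. vulgatus and 168.7 with YB328. The level was lowest untreated and highest with YB328. It rose 4.74-fold with YB328 (95% interval 4.34 to 5.19) and 3.03-fold with P. vulgatus (95% interval 2.76 to 3.32). YB328 stood 1.57 times above P. vulgatus (95% interval 1.49 to 1.64), too small a ratio to pass. None of the other genes of tetrahydrobiopterin synthesis and recycling rose: of 6, 4 were expressed, and Qdpr, which recycles the cofactor, fell 2.02-fold with YB328 (103 to 50.9 CPM) and stood at 53.4 CPM with P. vulgatus. Qdpr overlaps Gm42413 on the opposite strand. Its fall lay at the limit and did not pass with total count scaling (log2 ratio -0.98), with 2 CPM added (-0.99) or with TPM (-0.62). Pts was at 14.4, 13.3 and 15.6 CPM and Spr at 55.1, 37.9 and 38.4 CPM in the order untreated, P. vulgatus, YB328. Gchfr, which encodes the feedback regulator of GTP cyclohydrolase, was below the minimum at 0.416 to 1.36 CPM.

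The promoters of Gch1 and Ass1, both at their highest level with YB328, are shown beside those of Odc1 and Sat1, which passed in no comparison. These are the members matched in the RefSeq promoter table (4 of 10, build GRCm38.p6), 5′ to 3′ on the strand of the gene. Each has 250 bases before and 50 after the start annotated there. For Ass1 and Odc1 that start (31470270 and 17544873) lies inside the gene coordinates given here, so some bases before it are within the gene. Capitals mark matches on either strand to a loose form of the motif bound by NF-kB, 3 G and a pair of C with 5 bases between, or to TGNNGCAA, a motif of C/EBP and ATF proteins.
Gch1 (chr14:47189364-47189663, minus strand): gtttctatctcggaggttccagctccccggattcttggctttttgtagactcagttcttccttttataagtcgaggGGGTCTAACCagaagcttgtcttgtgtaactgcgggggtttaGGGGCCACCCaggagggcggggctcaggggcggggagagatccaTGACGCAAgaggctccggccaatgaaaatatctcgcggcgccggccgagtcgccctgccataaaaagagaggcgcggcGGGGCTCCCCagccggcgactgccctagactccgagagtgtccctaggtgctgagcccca
Ass1 (chr2:31470020-31470319, plus strand): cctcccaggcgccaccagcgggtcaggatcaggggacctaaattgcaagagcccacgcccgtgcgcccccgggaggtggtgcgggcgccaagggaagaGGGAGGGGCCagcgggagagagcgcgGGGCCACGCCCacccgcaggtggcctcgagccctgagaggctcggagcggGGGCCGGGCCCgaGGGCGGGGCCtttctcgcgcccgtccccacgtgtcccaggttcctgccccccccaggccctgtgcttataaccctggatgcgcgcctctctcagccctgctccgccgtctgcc
Odc1 (chr12:17544623-17544922, plus strand): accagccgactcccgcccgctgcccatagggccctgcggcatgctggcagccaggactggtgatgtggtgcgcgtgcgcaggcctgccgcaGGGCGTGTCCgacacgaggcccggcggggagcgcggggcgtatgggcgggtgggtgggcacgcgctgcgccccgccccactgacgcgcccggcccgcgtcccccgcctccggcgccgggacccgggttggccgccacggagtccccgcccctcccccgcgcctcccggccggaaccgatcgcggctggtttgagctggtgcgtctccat
Sat1 (chrX:155216400-155216699, minus strand): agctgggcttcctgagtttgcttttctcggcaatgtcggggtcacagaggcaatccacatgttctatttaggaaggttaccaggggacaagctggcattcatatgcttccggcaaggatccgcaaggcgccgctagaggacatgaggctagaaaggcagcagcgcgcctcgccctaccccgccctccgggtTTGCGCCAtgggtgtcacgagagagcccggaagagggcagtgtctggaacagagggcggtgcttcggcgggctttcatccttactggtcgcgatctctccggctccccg
The NF-kB motif was found in 3 separate stretches for Gch1, 4 for Ass1, 1 for Odc1 and 0 for Sat1. In the Gch1 and Ass1 promoters some matches on opposite strands overlap or coincide. The same motif occurs in 50.8% of the 32851 promoters of the table, and the Ass1 window is 74.0% G and C and the Odc1 window 78.0%, against a median of 52.7%. The letters TGNNGCAA were found once in Gch1 and once in Sat1, and in 11.4% of all promoters. Neither the core of the interferon-stimulated response element (3.44% of promoters) nor TTCNNNGAA, the motif bound by STAT proteins (8.30%), was found in the 4 windows. A match is a description of the letters and not a binding site.

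Slc7a2 (chromosome 8, 40862396 to 40922308) encodes the cationic amino acid transporter CAT2, which brings arginine into the cell. It was at 48.9 CPM untreated, 1043 with P. vulgatus and 700.4 with YB328. The rise was 21.4-fold with P. vulgatus (95% interval 19.9 to 23.0) and 14.3-fold with YB328 (95% interval 13.3 to 15.4). P. vulgatus stood 1.49 times above YB328 (95% interval 1.46 to 1.52), which did not pass. With the deposited TPM, 5.14, 265 and 199.98 in the order untreated, P. vulgatus and YB328, the rise was larger, 51.5-fold with P. vulgatus and 38.9-fold with YB328. Over all genes tested the median log2 ratio to untreated was larger in TPM too. It was 0.49 against 0.13 in CPM with P. vulgatus and 0.61 against 0.15 with YB328.

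The counts and TPM of Slc7a2 imply different transcript lengths in the libraries. A count divided by its TPM gives the transcript length that the authors' estimate used, and it was set to bases by genes with a single annotated transcript, for which it ran from 0.822 to 1.15 times the annotated length between percentiles 5 and 95 with P. vulgatus. For Slc7a2 the implied length was 8545 bases untreated, 4675 with P. vulgatus and 4420 with YB328. The GENCODE M21 annotation has coding models of 7910 and 7626 bases and of 3677 and 3681 bases for this gene, so the untreated value lay near the long models and the bacterial values nearer the short ones. Of 8218 genes with at least 100 counts in every library, 107 had a larger drop in implied length from untreated to P. vulgatus and 81 from untreated to YB328. In mouse cells this gene is known to make, beside its messenger RNA, a longer transcript that is retained in the nucleus (CTN-RNA). The nuclear transcript Malat1 took 1.0003% of counts untreated, 0.141% with P. vulgatus and 0.0930% with YB328, and its part, and that of nuclear RNA, in the length of Slc7a2 was not tested. Reads and single transcripts were not analysed here. Asl differed the other way, with an implied length of 1091 bases untreated against 1929 and 1764. Its ratio of untreated to bacterial length was 0.566 with P. vulgatus and 0.619 with YB328. Both lay inside percentiles 5 to 95 of the 8218 genes, 0.560 to 1.36 and 0.559 to 1.40.

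**Figure D2:**
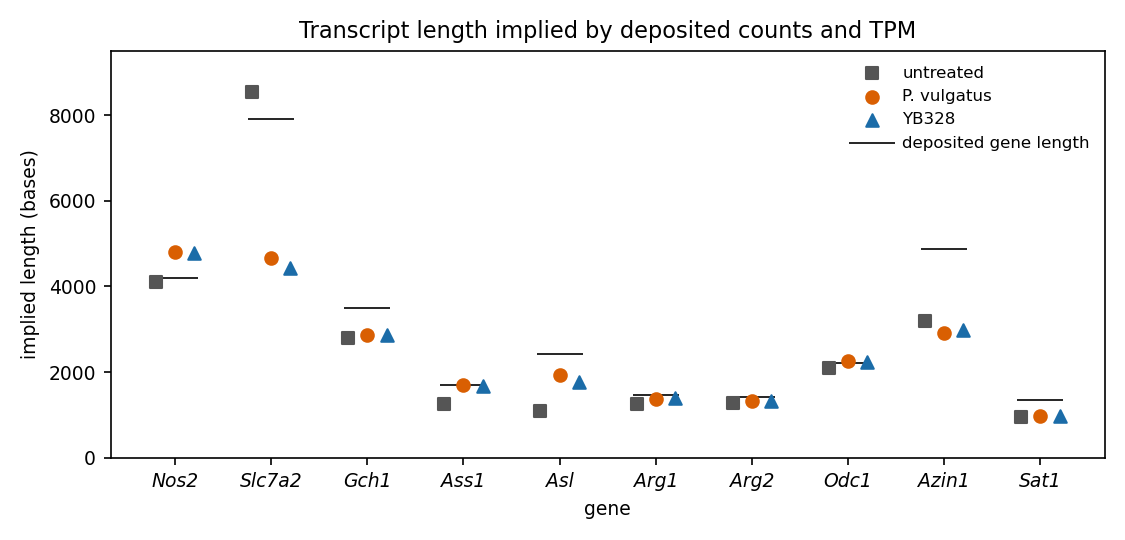
Transcript length in bases implied by the deposited count and TPM of each gene in the untreated (squares), P. vulgatus (circles) and YB328 (triangles) libraries; the horizontal bar is the gene length in the deposited table. Slc7a2 drops from 8545 bases untreated to 4675 and 4420 in the bacterial libraries, and Asl goes the other way.

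Ass1 and Asl encode argininosuccinate synthase and lyase, which act in turn to rebuild arginine from citrulline. Ass1 (chromosome 2, 31470207 to 31520672) was at 46.0 CPM untreated, 41.7 with P. vulgatus and 88.8 with YB328. Only YB328 stood apart from the other libraries. Ass1 was 2.13 times higher with YB328 than with P. vulgatus (95% interval 1.98 to 2.29) and passed, while the ratio to untreated, 1.93 (95% interval 1.77 to 2.10), lay just under the limit and passed with TPM (log2 ratio 1.005). The ratio of P. vulgatus to untreated was 0.905 (95% interval 0.823 to 0.997). Of the genes tested between the bacterial libraries 238 had a larger ratio in favour of YB328 than Ass1.

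Asl (chromosome 5, 130011258 to 130029247) was at 36.9 CPM untreated, 47.1 with P. vulgatus and 70.8 with YB328. The order was that of Gch1, with YB328 highest, but no comparison of Asl passed. The ratio was 1.92 for YB328 to untreated (95% interval 1.75 to 2.11), 1.28 for P. vulgatus to untreated (95% interval 1.16 to 1.41) and 1.501 for YB328 to P. vulgatus (95% interval 1.40 to 1.61). With TPM the P. vulgatus library was slightly below untreated (29.0 and 30.4 TPM).

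Arg1 (chromosome 10, 24915221 to 24927484) encodes the cytosolic arginase. It was at 1.68 CPM untreated, 242 with P. vulgatus and 43.8 with YB328, from 26, 6399 and 1197 counts. P. vulgatus was highest, YB328 lay between, and the untreated library was low. Arg1 rose 143-fold with P. vulgatus (95% interval 97.8 to 219.8) and 26.01-fold with YB328 (95% interval 17.7 to 40.0). It was 5.52 times lower with YB328 than with P. vulgatus (95% interval 5.18 to 5.87), and only 19 of the 9764 genes tested had a lower ratio. Arg1 is also a marker of alternatively activated macrophages, and the 6 other genes of that list are given beside it, in the order untreated, P. vulgatus, YB328. Mrc1 (29.6, 6.12 and 2.27 CPM), Clec10a (49.5, 2.04 and 8.75) and Ccl17 (2576, 265 and 389) fell in both bacterial libraries, and Ccl22 (1728, 6117 and 5601) rose in both. Chil3 (261, 247 and 187 CPM) did not pass, and Retnla (0, 0.0378 and 0 CPM) was below the minimum. The summed level was 4644, 6637 and 6189 CPM, while the median log2 ratio of the 5 genes tested was -2.43 with YB328 and -2.18 with P. vulgatus, and the part of such cells in the level of Arg1 was not tested.

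Arg2 (chromosome 12, 79130777 to 79156301) encodes the mitochondrial arginase. It was at 20.1 CPM untreated, 72.2 with P. vulgatus and 27.5 with YB328. P. vulgatus stood apart, and YB328 was close to untreated. It rose 3.59-fold with P. vulgatus (95% interval 3.19 to 4.06), while the ratio of YB328 to untreated was 1.37 (95% interval 1.196 to 1.57) and did not pass. YB328 was 2.63 times below P. vulgatus (95% interval 2.41 to 2.86), which passed. Its counts overlap by 285 bases those of Vti1b on the opposite strand, and the library kit does not mark strand, and Vti1b was at 80.1, 93.5 and 91.0 CPM.

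**Figure D3:**
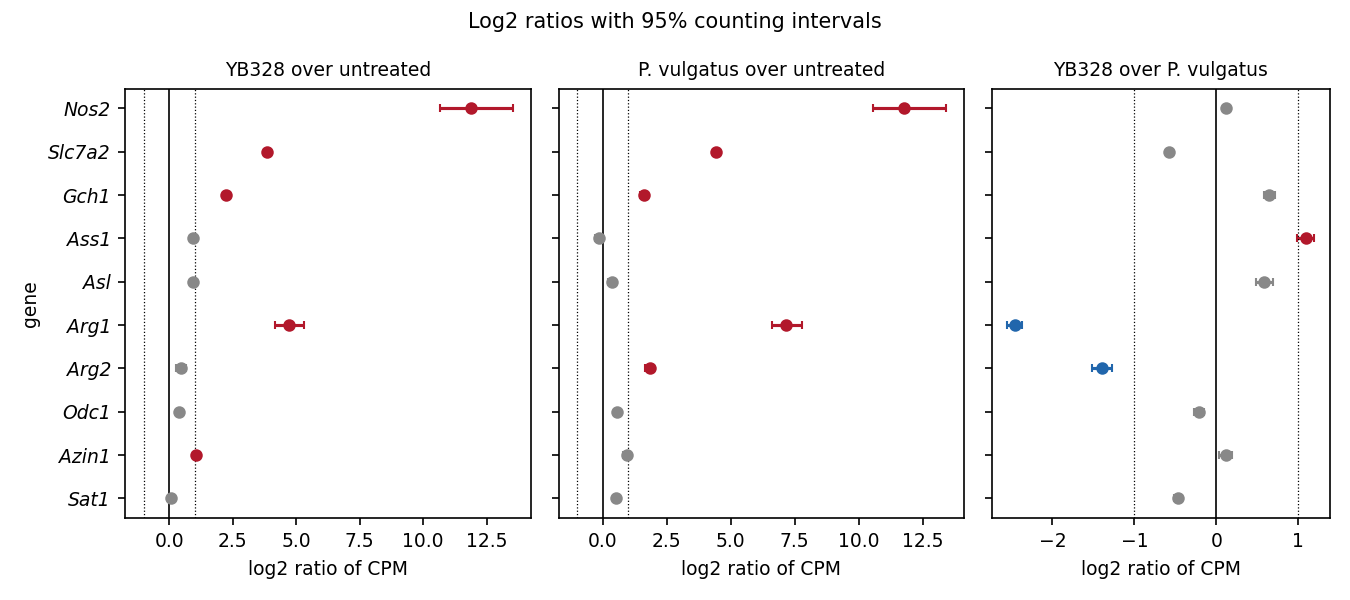
Log2 ratio of CPM (points, with no constant added) and its 95% counting interval (bars) for each gene in the 3 comparisons, with red for genes that rose or were higher, blue for lower and grey for those that did not pass; dotted lines mark a ratio of 2 in either direction, and the horizontal scales differ. Arg1 and Arg2 lie left of 0 and Ass1 right of 0 in the comparison of YB328 with P. vulgatus.

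The balance between genes within a library does not depend on the scaling between libraries. Per length, Arg1 stood at 16.9 times Nos2 in the untreated library (95% interval 6.39 to 56.4, from 26 and 5 counts), at 0.747 times with P. vulgatus (95% interval 0.727 to 0.767) and at 0.121 times with YB328 (95% interval 0.115 to 0.129). Nos2 thus exceeded Arg1 in TPM in both bacterial libraries, 1.34-fold with P. vulgatus and 8.23-fold with YB328. From the counts, the ratio of Arg1 to Nos2 was 5.97 times larger with P. vulgatus than with YB328 (95% interval 5.60 to 6.37), and that of Arg2 to Nos2 was 2.85 times larger (95% interval 2.61 to 3.11). The recycling and cofactor genes went the other way: relative to Nos2, Ass1 was 1.97 times and Gch1 1.45 times higher with YB328 than with P. vulgatus (95% intervals 1.83 to 2.12 and 1.38 to 1.52). Between the arginases, Arg1 stood at 0.0852 times Arg2 untreated, 3.29 times with P. vulgatus and 1.53 times with YB328, so the more abundant arginase transcript was Arg2 untreated and Arg1 in both bacterial libraries.

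**Figure D4:**
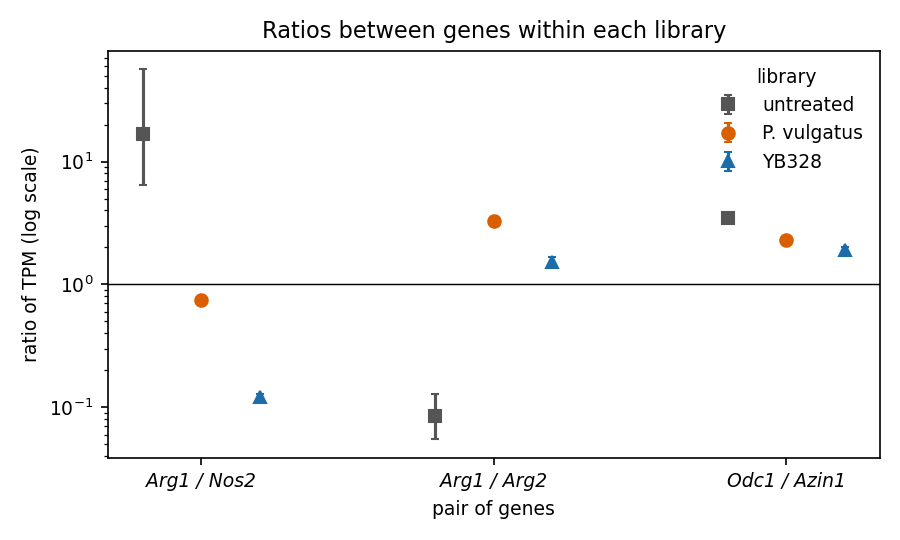
Ratio of TPM (log axis) of Arg1 to Nos2, Arg1 to Arg2 and Odc1 to Azin1 within the untreated (squares), P. vulgatus (circles) and YB328 (triangles) libraries, with 95% counting intervals. Arg1 to Nos2 falls from 16.9 untreated to 0.747 with P. vulgatus and 0.121 with YB328, and Odc1 to Azin1 spans 3.48 to 1.91.

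Odc1 (chromosome 12, 17544794 to 17551505), which encodes ornithine decarboxylase, the first enzyme of polyamine synthesis, was at 108.7 CPM untreated, 162 with P. vulgatus and 140.1 with YB328. None of its ratios passed: they were 1.49 for P. vulgatus to untreated (95% interval 1.41 to 1.58), 1.29 for YB328 to untreated (95% interval 1.22 to 1.37) and 0.864 for YB328 to P. vulgatus (95% interval 0.827 to 0.903). Azin1 (chromosome 15, 38487427 to 38519266) encodes antizyme inhibitor, a relative of ornithine decarboxylase that binds antizyme and so spares the enzyme from degradation. It was at 47.5 CPM untreated, 90.8 with P. vulgatus and 98.1 with YB328. Both bacterial libraries lay close together and above untreated, and the limit fell between them: the ratio to untreated was 2.07 with YB328 (95% interval 1.90 to 2.24), which passed, and 1.91 with P. vulgatus (95% interval 1.76 to 2.08), which did not. The rise with YB328 did not pass when the scaling and comparison kept to nuclear protein-coding genes (log2 ratio 0.90) or after thinning (0.99), and the P. vulgatus ratio passed with TPM (1.44). Per length, Odc1 stood at 3.48 times Azin1 untreated (95% interval 3.19 to 3.80), 2.30 times with P. vulgatus (95% interval 2.18 to 2.41) and 1.91 times with YB328 (95% interval 1.81 to 2.002).

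Sat1 (chromosome X, 155213132 to 155216449) encodes spermidine/spermine acetyltransferase, which starts the breakdown and export of polyamines. It was at 229 CPM untreated, 329 with P. vulgatus and 238 with YB328. The untreated and YB328 libraries lay close together, with a ratio of 1.04 (95% interval 0.999 to 1.08), and the ratio of P. vulgatus to untreated was 1.44 (95% interval 1.38 to 1.497), which did not pass. In TPM, Sat1 was the highest of the 10 genes untreated (215 TPM, 58.1% of their sum) and with P. vulgatus (399 TPM, 27.6%), and second to Nos2 with YB328 (309 TPM, 25.5%).

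The order of levels per length changed between the libraries. Untreated, it ran Sat1, Odc1, Ass1, Asl, Arg2, Azin1, Gch1, Slc7a2, Arg1 and Nos2, and the neighbours Ass1 and Asl, and Arg2 and Azin1, did not differ beyond counting error. With P. vulgatus it ran Sat1, Nos2, Slc7a2, Arg1, Odc1, Arg2, Gch1, Azin1, Ass1 and Asl, with Ass1 and Asl (29.2 and 29.0 TPM) within counting error of each other. With YB328 it ran Nos2, Sat1, Slc7a2, Odc1, Gch1, Ass1, Asl, Azin1, Arg1 and Arg2, and Azin1 and Arg1 (41.4 and 39.7 TPM) were within counting error. Nos2 and Slc7a2 were thus among the 3 most abundant of the 10 in both bacterial libraries, while Arg1 held the fourth place with P. vulgatus and the ninth with YB328. The summed level of the 10 genes was 370.3 TPM untreated, 1445 with P. vulgatus and 1214 with YB328. In TPM the other genes tested also tended to be higher than untreated, with a median log2 ratio of 0.49 with P. vulgatus and 0.61 with YB328. The counts of Ass1, Arg2, Odc1 and Azin1 are not whole numbers, as happens where an estimate divides reads between genes.

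Other genes of these pathways, 51 in 7 lists, went in both directions. With YB328, 5 of the 34 expressed genes rose and 8 fell (median log2 ratio -0.10), a balance that turned to 8 and 3 with the deposited TPM. With P. vulgatus 6 of 33 rose and 6 fell (median -0.27), against the shares of all genes given above. In the list of transporters, Slc3a2, which encodes the heavy chain shared by several amino acid transporters, rose 4.02-fold with YB328 (213 to 858 CPM) and 3.37-fold with P. vulgatus (719 CPM). Slc7a1, the constitutive arginine transporter gene, fell 2.19-fold with YB328 (19.96 to 9.12 CPM) and stood at 12.5 CPM with P. vulgatus, although its log2 ratio for YB328 turned to 0.68 with TPM and missed the limit with 2 CPM added (-0.98). Slc7a7, whose product pairs with that of Slc3a2 to export arginine, fell 5.05-fold with P. vulgatus (28.9 to 5.72 CPM) and was 2.95 times higher with YB328 (16.9 CPM) than with P. vulgatus. It overlaps Oxa1l on the opposite strand. Slc25a29, a mitochondrial carrier gene, fell 2.89-fold with P. vulgatus and stood at 15.7 CPM with YB328, from 28.1 CPM untreated.

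Among the synthases and their regulators, Nos1 had 0 CPM in every library and Nos3 had 0 untreated, 0.944 with P. vulgatus and 0.256 with YB328. Both were below the minimum, which left Nos2 as the only synthase gene above it. In the list of the urea cycle, ornithine, proline and creatine, Gatm, which makes the creatine precursor from arginine and glycine, was highest with P. vulgatus. It rose 7.68-fold with P. vulgatus (17.5 to 134 CPM; 95% interval 6.78 to 8.72), stood at 26.4 CPM with YB328, and was 5.09 times lower with YB328 than with P. vulgatus. With TPM the level with YB328 also passed against untreated (14.5 and 5.05 TPM, log2 ratio 1.43). Aldh18a1, the first enzyme of proline synthesis from glutamate, fell 2.88-fold with YB328 and 3.24-fold with P. vulgatus (52.7 CPM untreated), and overlaps Gm15801 on the same strand. Prodh, which breaks proline down, fell 2.36-fold with YB328 and 3.76-fold with P. vulgatus, and overlaps Dgcr6 on the opposite strand. Nags, whose product makes the activator of the urea cycle, went from 3 counts untreated to 5.02 CPM with YB328, a ratio of 25.8 (95% interval 8.65 to 126.7) at the very minimum, which was not reached with TPM or with median-of-ratios size factors, and stood at 3.74 CPM with P. vulgatus. Cps1 and Otc, the other early urea cycle genes, were under 5 CPM in every library.

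In the list of polyamine synthesis and its regulators, 1 of the 7 expressed genes rose and 3 fell with YB328, and 2 rose and 1 fell with P. vulgatus. Of all genes tested, 24.2% rose and 18.7% fell with YB328, and 24.7% rose and 19.2% fell with P. vulgatus. Srm, spermidine synthase, fell 3.03-fold with YB328 and 3.08-fold with P. vulgatus (29.9 CPM untreated). Sms, spermine synthase, fell 2.82-fold with YB328 (12.8 to 4.56 CPM) and stood at 6.57 CPM with P. vulgatus, and the fall did not pass with TPM (log2 ratio -0.77). Azin2, a relative of Azin1, rose 11.5-fold with P. vulgatus (8.68 to 99.8 CPM) and 5.94-fold with YB328 (51.6 CPM). Oaz2, an antizyme gene, rose 2.77-fold with P. vulgatus (25.1 to 69.4 CPM) and stood at 39.7 CPM with YB328, which passed with TPM (log2 ratio 1.01). Smox, spermine oxidase, rose 8.86-fold with P. vulgatus (95% interval 8.31 to 9.46) and 6.89-fold with YB328 (95% interval 6.46 to 7.36), from 63.8 CPM. Paox, which oxidises acetylated polyamines, fell 4.04-fold with P. vulgatus and 2.67-fold with YB328 from 7.79 CPM, and it overlaps Echs1 on the opposite strand. With YB328 the fall of Paox did not pass with TPM (log2 ratio -0.87) or with 2 CPM added (-0.99). Eif5a2, one of the targets of the spermidine-derived hypusine modification, rose 3.91-fold with P. vulgatus and 2.34-fold with YB328 from 2.27 CPM. It lay close to the minimum, and with YB328 it did not pass with nuclear protein-coding genes alone (log2 ratio 0.97) or with 2 CPM added (0.78), nor in either library with TPM, where it was under the minimum. The summed level of 8 genes of dividing cells was 329 CPM untreated, 116 with P. vulgatus and 117 with YB328, and its part in the lower levels of Srm and Sms was not tested.

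**Figure D5:**
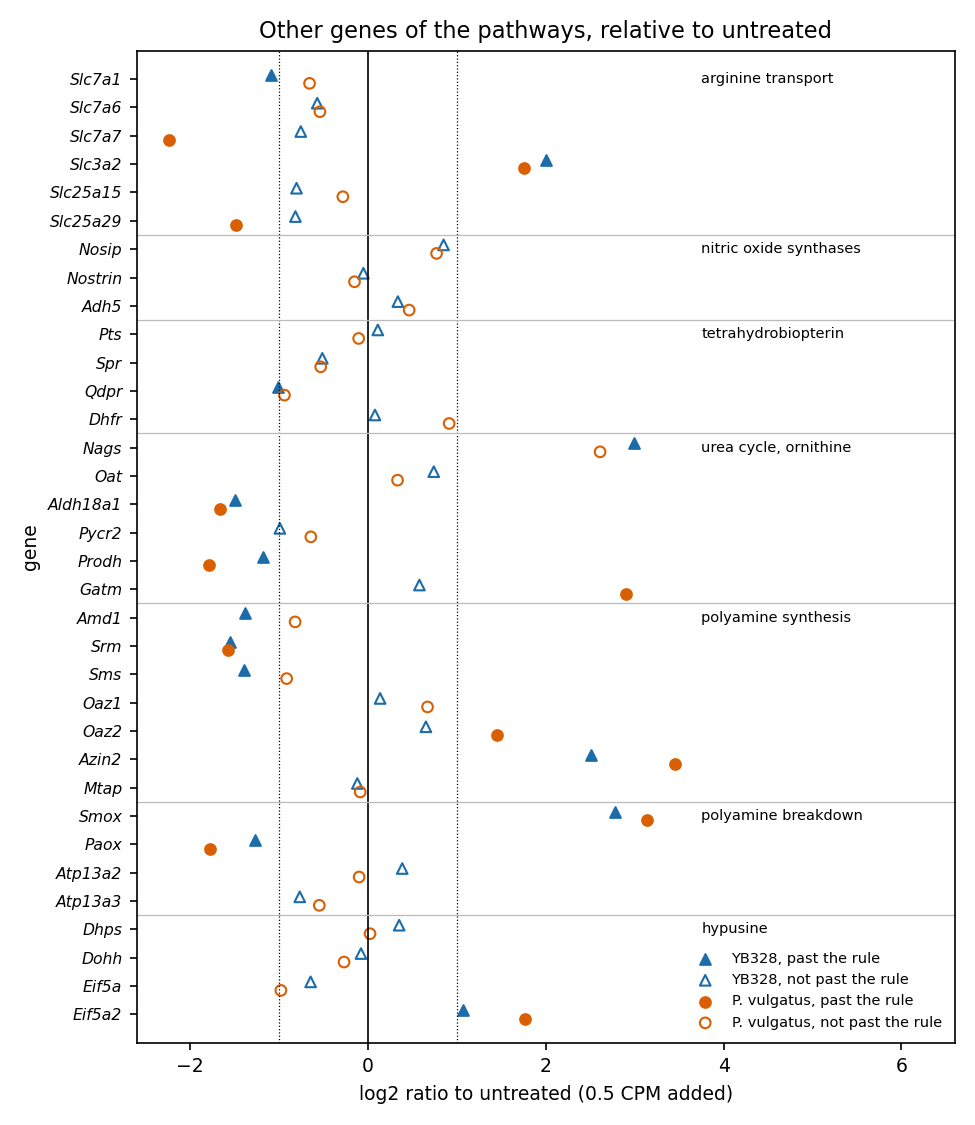
Log2 ratio to untreated, with 0.5 CPM added, of the pathway genes that are not among the 10, by list, for YB328 (triangles) and P. vulgatus (circles); filled symbols passed and open symbols did not. Slc3a2, Azin2 and Smox lie right of 1 in both libraries, Gatm, plotted in CPM, does so with P. vulgatus and not with YB328, and Srm and Aldh18a1 lie left of -1 in both.

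By the log2 ratios to untreated in both bacterial libraries, the genes most like Nos2 among 6887 were the chemokine gene Cxcl1 (distance 2.26 on the log2 scale), the prostaglandin synthesis gene Ptgs2 (2.95) and Ptges, another of that pathway (3.79). Cxcl1 was at 0.194 CPM untreated, 717 with P. vulgatus and 223 with YB328. In the same order Ptgs2 was at 1.30, 1152 and 405 CPM, and Ptges at 1.43, 565 and 346. Each was thus lower with YB328 than with P. vulgatus, while Nos2 was at 1142 CPM with P. vulgatus and 1236 with YB328. With 0.5 CPM added, as in these distances, no other gene compared had as large a log2 ratio as Nos2 in either comparison. Without it the ratio of Cxcl1 with P. vulgatus was the larger, from an untreated level at the floor of 3 counts. The genes most like Arg1 were Tgm2, a transglutaminase gene, at 11.1 CPM untreated, 958 with P. vulgatus and 330 with YB328 (distance 0.65), Mgarp, at 0.130, 42.8 and 11.0 CPM (0.71), and Timp1, which encodes a metalloproteinase inhibitor, at 14.2, 843 and 195 CPM (1.13). Untreated Mgarp was under the floor of 3 counts, so its distance to Arg1 depends on the 0.5 CPM added. The likeness is a description over 3 libraries.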

How the data were processed

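Per the labels' protocols, total RNA of each group was turned into cDNA by SMART-Seq v4 chemistry for low input, and the cDNA was made into libraries with Nextera XT. Neither kit keeps the strand. DRAGEN and the build GRCm38 are named in the processing list, per the submitters' processing notes; the sources used here name no version, counter or annotation release. Per the file headers the deposited table gives a TPM, corrected for length, and a count per gene. Some of the deposited counts are not whole, so they were taken as estimated counts that the authors did not scale, and were rounded for scaling and intervals.

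The libraries were scaled with the TMM method of edgeR 4.0.16 (R 4.3.3), which gave size factors only, and compared in Python 3.11.15 (numpy 2.4.6, scipy 1.17.1, pandas 2.3.3) over the whole table. With 1 library per group no test was run: a rule of size (5 CPM, log2 ratio of 1 with 0.5 CPM added, exact Clopper-Pearson interval at 95% for the ratio of counts) stood in its place. The rule was tried on simulated counts with planted changes and counting error only, which cannot show how often differences between cultures pass it. The fold values leave out the added 0.5 CPM. A floor of 3 counts is 0.194 CPM untreated, 0.113 with P. vulgatus and 0.110 with YB328. The 10 genes and all lists were chosen with earlier results of these data known. All 10 genes are named, with up to 4 genes per pathway list that passed and had the largest ratios to untreated, and 3 genes nearest in pattern to Nos2 and Arg1 among those with at least 20 CPM. Other genes were named for context after their values were seen. Figures were drawn with matplotlib 3.10.9. The alternatives tried were scaling by total counts, size factors by median of ratios (DESeq2 1.42.0), TMM with each library's 10 most abundant genes left out, nuclear protein-coding genes without Lars2, the deposited TPM, no minimum or 20 CPM, 0.1 or 2 CPM added, and thinning to the shallowest library (seed 1). Their use for pathway genes outside the 10, and the transcript lengths implied by count and TPM, were added after seeing the data. Protein sequences were not used here.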

Additional observations from a re-analysis of the deposited data

How the results depend on the processing

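No paired analysis was possible because each group has 1 library, and for the same reason no replicate could be left out. How many of the 10 genes were higher or lower stayed within 1.5 times in each comparison under the 10 alternatives. Of 300 values of these genes, 294 kept their direction and their side of the limit. The others were Azin1 with YB328 (lost with nuclear protein-coding genes alone, log2 ratio 0.90, and with thinning, 0.99), Azin1 with P. vulgatus (gained with TPM, 1.44), Ass1 with YB328 (gained with TPM, 1.005), and changes of sign that passed nowhere in Sat1 with YB328 (-0.08 with nuclear protein-coding genes alone) and Asl with P. vulgatus (-0.07 with TPM). Without a length correction the ratio of Arg1 to Nos2 was 5.20, 0.212 and 0.0355 and that of Odc1 to Azin1 2.29, 1.79 and 1.43 in the order untreated, P. vulgatus, YB328. Settings were run gene by gene for the 16 other pathway genes that the naming rule chose because they passed, and for no others. Among their values 1 called value turned, Slc7a1 with YB328 (0.68 with TPM), 23 lost their call, 6 gained one and 4 that did not pass changed sign, out of 480. Of all 51 other pathway genes, 8 rose and 3 fell with YB328 by TPM, where 5 and 8 did so in CPM. With YB328 3 rose and 4 fell with at least 20 CPM, and 5 fell with 2 CPM added. Between the bacterial libraries 2 were lower with no minimum, and 0 higher with at least 20 CPM, where 1 was each way. The TPM moved the median of all genes from 0.15 to 0.61 with YB328 and from 0.13 to 0.49 with P. vulgatus, and the share of higher genes among all that passed from 56.3% to 74.3% and from 56.2% to 69.6%. Genes that fell with YB328 numbered 1972, and 1156 with TPM, 3595 with no minimum and 988 with 20 CPM. With P. vulgatus 2022 fell, and 1336, 3666 and 1048 in the same settings. Between the bacterial libraries 282 were higher and 263 lower, and 780 and 765 with no minimum, and 112 and 111 with 20 CPM. The causes were not tested. Depth limits the untreated values of Nos2 (5 counts) and Arg1 (26 counts), and no setting stands in for replicates.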
